A study of Mus musculus with 6 samples.

Results

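The small leucine-rich proteoglycans are secreted matrix proteins, and 10 of their genes, *Dcn*, *Bgn*, *Aspn*, *Lum*, *Fmod*, *Prelp*, *Omd*, *Kera*, *Ogn* and *Epyc*, were taken by symbol from the 27506 genes in the count table. Transcripts were measured by RNA-seq in dental pulp of the mandibular first molar at PN3.5 (3.5 days after birth) from C57BL/6 mice. The 3 control libraries came from *Ror2fl/fl* mice, and the 3 mutant libraries came from *Osr2-Cre;Ror2fl/fl* mice, in which Cre under *Osr2* control acts in mesenchyme of the tooth and in the bone around it, so that epithelial *Ror2* is left in place. Both groups carried floxed *Ror2*, a receptor tyrosine kinase for Wnt ligands, and the control genotype lists no Cre. Library titles hold unexplained letter codes: WW for control library 1, OW for control libraries 2 and 3, and OR for all mutant libraries. No code is shared by the groups, so anything these codes stand for cannot be told apart from genotype. Nothing in the labels states that each library came from a separate animal or litter, so that p-values measure the spread between these samples, which may be technical.

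Each of these proteins consists of a core of leucine-rich repeats, to which most members attach chains of chondroitin, dermatan or keratan sulfate. They bind collagen and influence how fibrils assemble and how wide they grow, and several bind growth factors such as TGF-β. In teeth and bone they are known from predentin, dentin, the periodontal ligament and osteoid. By sequence, *Dcn*, *Bgn* and *Aspn* form class I, *Lum*, *Fmod*, *Prelp*, *Omd* and *Kera* class II, and *Ogn* and *Epyc* class III.

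Most members lie beside one another in the genome. On mm10 (GENCODE M21), *Dcn*, *Lum*, *Kera* and *Epyc* stand in this order on the plus strand of chromosome 10, from 97479609 to 97682454. *Aspn* (chr13:49544443-49567565), *Omd* (chr13:49582462-49592822) and *Ogn* (chr13:49608046-49624501) share the plus strand of chromosome 13. *Prelp* and *Fmod* are neighbors on chromosome 1, separated by 115.839 kb, and *Bgn* (chrX:73483602-73495933) stands alone. RefSeq promoters (GRCm38.p6, 250 bases before to 50 after the start) matched 8 members, with no entry for *Dcn* or *Lum*. Those of the 3 chromosome 13 neighbors, whose transcripts all fell in the mutants, are printed with that of *Bgn*, whose groups overlapped. They cover chr13:49544193-49544492, chr13:49582212-49582511, chr13:49607765-49608064 and chrX:73483351-73483650, all on the plus strand. Capitals mark TATAAA and CANNTG (the E-box) on either strand, and the 2 TATAAA matches of *Ogn* overlap.
Aspn: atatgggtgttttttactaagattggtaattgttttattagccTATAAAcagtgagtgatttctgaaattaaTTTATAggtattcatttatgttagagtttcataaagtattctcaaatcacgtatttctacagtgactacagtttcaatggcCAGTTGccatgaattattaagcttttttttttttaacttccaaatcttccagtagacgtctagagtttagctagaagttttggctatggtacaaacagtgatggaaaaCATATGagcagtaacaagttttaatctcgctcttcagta
Omd: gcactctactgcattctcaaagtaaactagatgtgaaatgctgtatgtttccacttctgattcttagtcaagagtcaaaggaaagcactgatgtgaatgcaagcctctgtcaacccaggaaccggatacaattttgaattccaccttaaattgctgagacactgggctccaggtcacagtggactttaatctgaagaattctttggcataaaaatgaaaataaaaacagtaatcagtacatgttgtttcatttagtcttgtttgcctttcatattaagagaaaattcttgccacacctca
Ogn: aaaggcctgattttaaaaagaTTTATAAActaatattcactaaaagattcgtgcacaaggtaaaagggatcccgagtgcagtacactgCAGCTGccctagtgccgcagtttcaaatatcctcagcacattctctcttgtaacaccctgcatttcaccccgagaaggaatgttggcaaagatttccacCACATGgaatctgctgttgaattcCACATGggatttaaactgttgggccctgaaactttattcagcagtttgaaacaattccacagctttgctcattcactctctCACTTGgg
Bgn: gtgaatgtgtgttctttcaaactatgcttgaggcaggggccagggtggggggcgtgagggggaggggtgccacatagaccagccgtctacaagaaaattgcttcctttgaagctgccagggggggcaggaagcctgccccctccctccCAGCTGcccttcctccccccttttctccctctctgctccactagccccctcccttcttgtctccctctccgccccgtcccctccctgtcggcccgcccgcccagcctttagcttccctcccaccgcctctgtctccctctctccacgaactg

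TATAAA occurred in the *Aspn* and *Ogn* windows but in neither strand of those of *Omd* and *Bgn*, against 13.6% of 32851 promoters of the same length. CANNTG was in a window of 6 of the 8 members (72.3% of all promoters). Members are counted by gene, and *Epyc* has 2 windows, so it had more room for a match than a single promoter. The other motifs searched on both strands were CCAAT, in 4 members and 37.4% of promoters, CAGAC in 2 and 49.6%, TGTGGT in 2 and 16.8%, CTTTGA in 3 and 16.0%, GGAATG in 2 and 14.7%, and TGANTCA in 0 and 7.81%. The *Aspn* and *Omd* windows were AT-rich, with a GC content of 31% and 37.7%, against a median of 52.7% over all promoters and 63.7% for *Bgn*. A match is a description of these letters only.

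The 6 libraries held 56134770 to 62628940 estimated counts. *Ror2* ranged from 36.2 to 38.2 CPM (counts scaled to library size by the TMM method) in controls and from 26.3 to 28.1 CPM in mutants (log2 fold change −0.43, SE 0.08, adjusted p = 0.013, edgeR's quasi-likelihood test), so that its transcript was still detected in every mutant library. The adjusted p for *Ror2* was 0.066 without control library 2 and 0.075 without control library 3. The libraries labelled dental pulp also held RNA of enamel epithelium: 8 epithelial markers summed to between 171361 and 191706 CPM in controls and between 184973 and 255227 CPM in mutants. The odontoblast marker *Dspp* was at 2515 to 7979 CPM. In bulk tissue, fewer cells of a type and less RNA per cell cannot be told apart.

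Transcripts of 6 proteoglycan genes, *Omd*, *Ogn*, *Lum*, *Aspn*, *Prelp* and *Fmod*, were lower in the mutants, with means lower by 45.8% to 59.7%. Those of *Dcn* and *Bgn* overlapped between the groups, and *Epyc* and *Kera* were low in all libraries. Of the 10 members, 9 passed the filter on low counts, and 6 of these fell at an adjusted p under 0.05 (edgeR, over 19330 genes), against 9.84% of all genes tested (20.2% in either direction). In 7 of the 9, every mutant library was below every control library, against 22.1% of all genes tested (44.7% in either direction). None of the 9 rose, with 0 higher at an unadjusted p under 0.05 and 0 by DESeq2 or limma voom, whereas 10.4% of all genes did. The median log2 fold change was −0.99 over the 9 members and 0.01 over all genes. An exact two-sided permutation test over 3 against 3 libraries cannot go below p = 0.1, the value of each member whose groups did not overlap.

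The calls for *Omd* and *Ogn* held when any single library was left out, whereas the other 4 lost theirs in some of these fits, with folds of similar size. Without control library 2, the adjusted p-values were 0.10 for *Lum*, 0.14 for *Fmod*, 0.069 for *Aspn* and 0.081 for *Prelp*, with log2 fold changes of −0.88, −0.79, −1.10 and −0.79, and the share of all genes that fell dropped to 2.17%. Without control library 3 the adjusted p-values were 0.10, 0.13, 0.072 and 0.082 and the log2 fold changes −0.91, −0.84, −0.93 and −0.95, with 2.08% of all genes falling. Without mutant library 1, *Aspn* had 0.052 and *Prelp* 0.061, and without mutant library 2, *Lum* had 0.055 and *Fmod* 0.057.

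**Figure D1:**
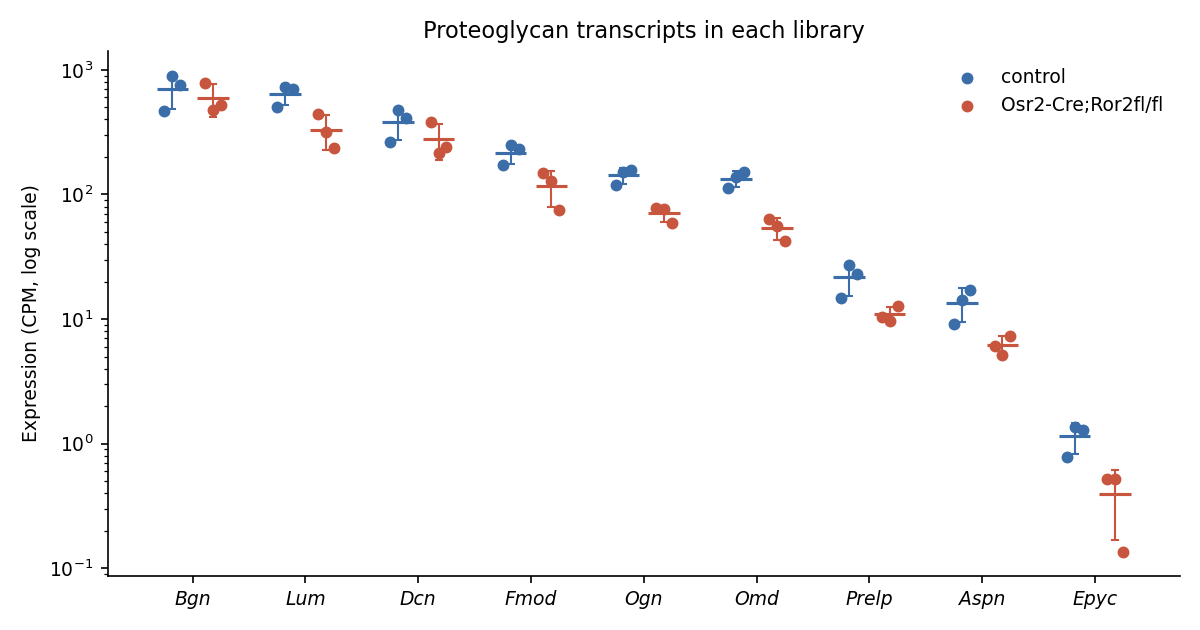
TMM-scaled CPM of 9 proteoglycan genes in each of the 6 libraries on a log scale, with points for libraries, horizontal lines for group means and bars for the SD (n = 3). Mutant points lie below all control points except for *Bgn* and *Dcn*; *Kera* is not drawn because 1 library had 0 counts.

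In class I, the abundant *Dcn* and *Bgn* did not pass the test and the scarcer *Aspn* fell. *Dcn*, the collagen-binding decorin that also binds TGF-β, was at 264, 474 and 413 CPM in control libraries 1 to 3 and at 378, 216 and 240 CPM in mutant libraries 1 to 3. Mutant library 1 lay within the control range. The log2 fold change was −0.47 (SE 0.27, approximate 95% interval −0.99 to 0.05, adjusted p = 0.23). *Bgn*, the related biglycan of bone and dentin, was at 464, 887 and 749 CPM in controls and at 790, 473 and 517 CPM in mutants. Here all mutant libraries lay inside the control range (−0.24, SE 0.27, interval −0.77 to 0.29, adjusted p = 0.55). These intervals use the normal distribution, which makes them too narrow for so few libraries. Even so, they leave room for a fall in either gene, so the test does not show that the genes were unaltered. *Aspn*, encoding asporin of the periodontal ligament and other collagenous tissue, was scarcer, at 9.13, 14.2 and 17.2 CPM in controls and 6.09, 5.13 and 7.32 CPM in mutants. Its groups did not overlap, and it fell by 1.13 on the log2 scale (SE 0.24, adjusted p = 0.017).

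In class II, all 4 members that could be tested fell. *Omd*, encoding osteomodulin (osteoadherin), a keratan sulfate proteoglycan of bone and dentin, was at 113, 137 and 151 CPM in controls and at 63.9, 55.4 and 42.4 CPM in mutants. The highest mutant library was at 56.6% of the lowest control library, and *Omd* had the smallest adjusted p of the members (log2 fold change −1.31, SE 0.17, adjusted p = 0.0027). *Lum*, encoding lumican, which spaces collagen fibrils in cornea and other tissue, was at 506, 728 and 699 CPM in controls and at 439, 317 and 235 CPM in mutants. Mutant library 1 came close to control library 1, and the fold change was −0.96 (SE 0.24, adjusted p = 0.028). *Fmod*, encoding fibromodulin, a regulator of collagen fibril growth in tendon, was at 171, 247 and 231 CPM in controls and at 147, 129 and 75.1 CPM in mutants. It showed the same narrow gap between the first libraries of each group (−0.88, SE 0.25, adjusted p = 0.041). *Prelp*, which binds collagen and the basement membrane proteoglycan perlecan, was at 14.8, 27.4 and 23.0 CPM in controls and at 10.5, 9.65 and 12.8 CPM in mutants (−0.99, SE 0.22, adjusted p = 0.021). Its lowest control library stood near the highest mutant library. *Kera*, encoding the corneal keratan sulfate proteoglycan keratocan, had 22, 11 and 7 counts in controls and 4, 3 and 0 in mutants and did not pass the filter. The 40 control and 7 mutant counts gave a ratio of 5.45 (exact 95% interval 2.41 to 14.4), which covers counting error only.

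Class III held a gene that fell and a gene with few counts. *Ogn*, encoding osteoglycin (mimecan), which takes part in collagen fibril assembly, was at 119, 150 and 157 CPM in controls and at 77.3, 76.3 and 58.7 CPM in mutants. The groups were well apart, and the log2 fold change of −1.0 had the smallest SE of the members (0.15, adjusted p = 0.0049). *Epyc*, encoding the growth plate cartilage proteoglycan epiphycan, had 50, 80 and 80 counts in controls and 31, 30 and 8 counts in mutants. No mutant library reached a control library, but the fold change of −1.54 (SE 0.48) did not pass the test (adjusted p = 0.055). The ratio of its summed counts, 210 in controls and 69 in mutants, was 2.90 (exact 95% interval 2.20 to 3.87, counting error only).

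Divided by exon length, *Lum* had the highest level of the family in controls, at 263 ± 49.2 CPM per kb (SD, n = 3), above *Bgn* at 115 ± 35.4 in every library. *Bgn*, *Dcn* (65.7 ± 18.5), *Fmod* (65.4 ± 12.1), *Omd* (59.5 ± 8.63) and *Ogn* (55.3 ± 7.88) followed, each overlapping the next. A wide gap separated these from *Prelp* (6.01 ± 1.78) and *Aspn* (5.74 ± 1.73), which overlapped, and from *Epyc* (0.448 ± 0.127) and *Kera* (0.0941 ± 0.0510). In the mutants, *Lum* at 135 ± 42.1 CPM per kb overlapped *Bgn* at 97.3 ± 28.1, and *Bgn* stood apart from *Dcn* at 47.6 ± 15.0. *Omd* was above *Ogn* in 3 of 3 control libraries and below it in 3 of 3 mutant libraries.

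Shares of the family's summed length-scaled level are given as a description. A share can rise because other members fall, and the level of *Bgn* itself overlapped between the groups. Levels of 44.7% of all genes tested did not overlap between the groups in either direction. A share that stands apart is thus not by itself a result about the family. *Lum* made up 42.7%, 40.6% and 41.3% of the family's summed level in controls and 37.2%, 37.8% and 32.7% in mutants. The share of *Bgn* was 15.7%, 19.8% and 17.8% in controls and 26.8%, 22.6% and 29.0% in mutants, above all controls. *Omd* went from 8.32% to 10.4% in controls down to 5.89% to 7.19% in mutants. Shares of *Dcn*, *Fmod*, *Ogn*, *Aspn* and *Prelp* overlapped. By class, class I took 25.8% to 31.8% in controls and 34.1% to 44.0% in mutants, and class II 60.2% to 64.5% and 48.1% to 57.2%. Without division by length, the 10 genes summed to 1662, 2666 and 2441 CPM in controls and to 1913, 1282 and 1188 CPM in mutants, so that the totals overlapped.

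**Figure D2:**
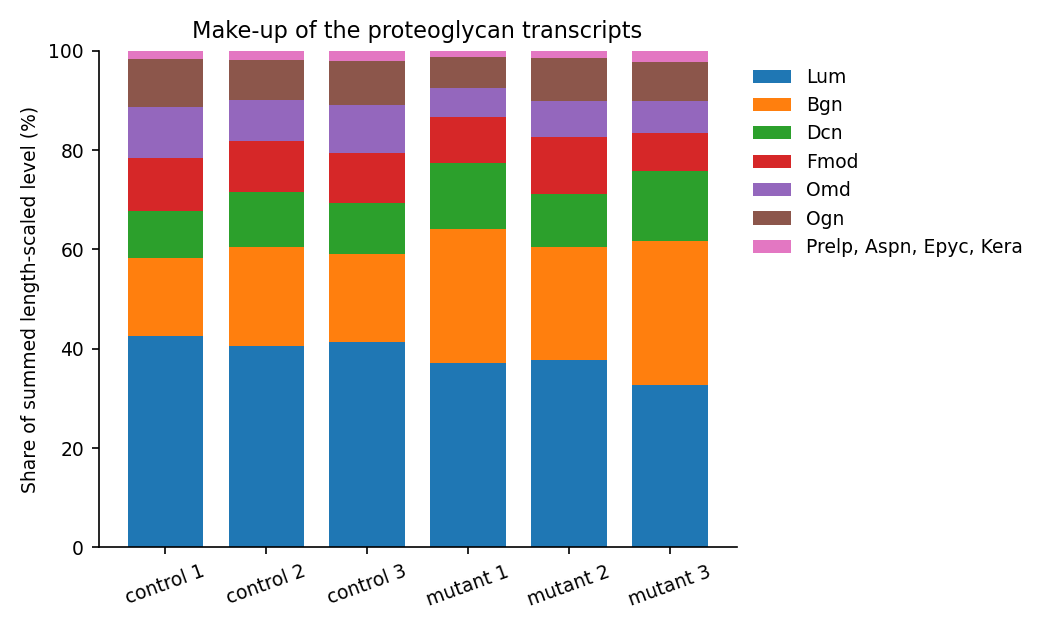
Share of the summed length-scaled level of the 10 genes taken by each (percent, stacked bars from 0 to 100) in each library, with *Prelp*, *Aspn*, *Epyc* and *Kera* drawn together. *Bgn* takes 22.6% to 29.0% of each mutant bar and 15.7% to 19.8% of each control bar.

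Ratios between members were compared within each library. Of the 36 pairs of tested members, 15 had ratios that did not overlap between the groups, close to the 43.3% of all pairs of tested genes, so the number of such pairs is not a result about the family. *Dcn* to *Bgn* had a CV of 3.17% in controls and 2.40% in mutants, with ratios of 0.570, 0.535 and 0.551 and of 0.479, 0.457 and 0.463 (exact permutation p = 0.1). These genes thus varied together from library to library while their ratio stood lower in each mutant. With an offset for GC content, the log2 fold change was −0.06 for *Dcn* and −0.29 for *Bgn*, so *Dcn* no longer fell more than *Bgn*. The part of base composition in this ratio was not tested. *Ogn* to *Omd* was 1.06 ± 0.0300 in controls and 1.32 ± 0.0996 in mutants (CPM ratio without division by length, SD, n = 3, exact permutation p = 0.1). In CPM, *Ogn* was thus above *Omd* in all 6 libraries, and their order changed only per kb.

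*Bgn* and *Dcn* overlapped between the groups, as did *Col1a1* and *Dspp*, which were chosen to be set beside them after their values were seen. *Col1a1*, the main collagen chain of bone and dentin, was at 11084, 37133 and 26565 CPM in controls and at 28301, 9883 and 13010 CPM in mutants. *Dspp* was at 2909, 7979 and 5218 CPM and at 6396, 2515 and 4151 CPM. In each of these 4 genes, mutant library 1 lay within the control range. Control library 1 was the lowest control and mutant library 1 the highest mutant in all 4, and equally in *Omd*, *Ogn*, *Lum* and *Fmod*.

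**Figure D3:**
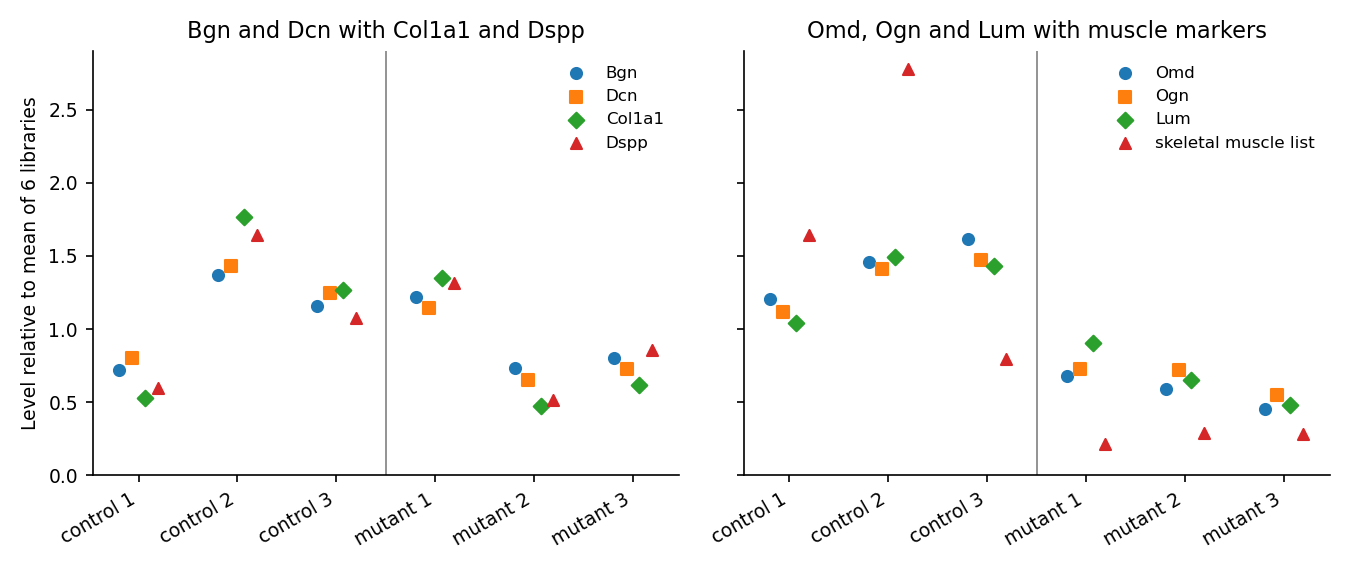
Level of each gene relative to its mean over the 6 libraries (CPM ratio, no unit), for *Bgn*, *Dcn*, *Col1a1* and *Dspp* on the left and *Omd*, *Ogn*, *Lum* and the summed skeletal muscle list on the right; each point is a library. On the left, mutant 1 lies within the control range of each gene, whereas on the right all mutant points lie below the control points of the same gene or list. All items drawn, the muscle list included, were chosen after their values were seen. The other marker lists are not drawn, and a link between the items was not tested.

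Of the 6 members that fell, 4 were AT-rich, and AT-rich genes fell more often over the whole table. Among the 3866 genes in the lowest quintile of GC content (28.3% to 43.8%), 21.9% fell and the median log2 fold change was −0.27, against 2.90% and 0.21 in the highest quintile. *Dcn*, *Lum*, *Ogn*, *Aspn*, *Omd* and *Epyc* were in the lowest quintile, and 4 of them fell. *Fmod* (GC 53.7%) and *Prelp* (53.8%), which also fell, were in the fourth quintile, where 4.84% of genes fell, and *Bgn* (51.2%) was in the third quintile. With an offset for GC content, *Omd* (log2 fold change −0.86, adjusted p = 0.015), *Ogn* (−0.57, 0.037), *Fmod* (−1.01, 0.030) and *Prelp* (−1.11, 0.019) stayed below the threshold. *Lum* (−0.70, adjusted p = 0.081) and *Aspn* (−0.62, 0.083) no longer passed, and *Dcn* moved to −0.06. The part of base composition in these results was not tested further.

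**Figure D4:**
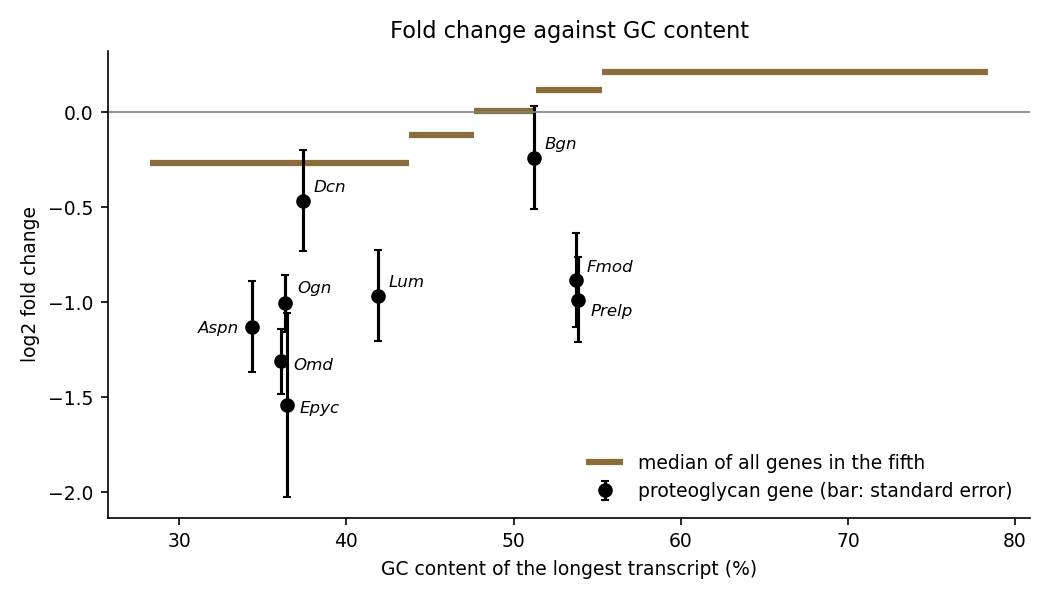
Log2 fold change (mutant over control) of 9 proteoglycan genes against the GC content of the longest transcript (percent), with bars for the SE and horizontal segments for the median of all genes in each quintile. The 9 genes lie below 0, *Fmod* and *Prelp* at a GC content where the median of all genes is above 0; *Kera* was not tested.

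**Figure D5:**
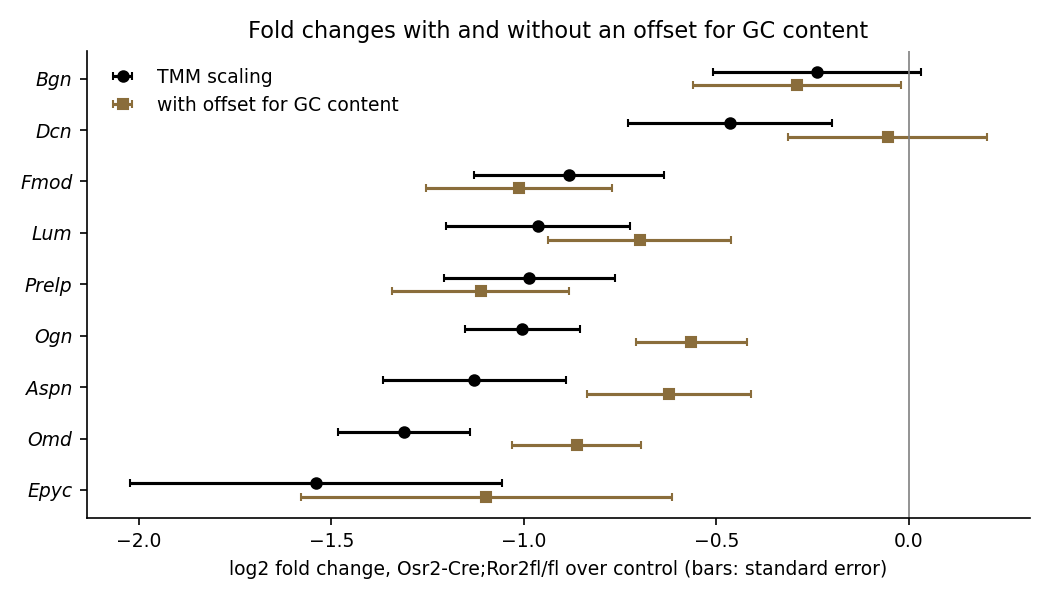
Log2 fold change (mutant over control) with its SE for 9 genes, with TMM scaling (circles) and with an added offset for GC content (squares). The offset draws *Ogn*, *Aspn*, *Omd*, *Epyc*, *Lum* and *Dcn* toward 0 and leaves *Fmod*, *Prelp* and *Bgn* slightly farther from it; *Kera* was not tested.

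Reads of some members could be shared with other genes. *Cenpp*, a centromere protein gene on the opposite strand, spans the 3 chromosome 13 members and fell as well, from 105, 87 and 105 counts to 49, 50 and 58 (log2 fold change −0.85, SE 0.21, adjusted p = 0.029). It shares 7 exon bases with *Aspn* and 0 with *Omd* and *Ogn*, which had more counts. *Omd* shares 128 of its 2221 stretches of 75 bases with other genes, and summed with 9 such genes it gave 542 CPM in controls and 409 CPM in mutants (log2 fold change −0.41, adjusted p = 0.053). Most of that sum came from the other genes, since *Omd* alone had 134 and 53.9 CPM. *Prelp* and *Epyc* overlap antisense genes, and strand use in counting is not given in the sources used here. *Dcn*, *Bgn*, *Lum*, *Fmod*, *Ogn*, *Aspn* and *Kera* shared no such stretch with another gene.

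Genes that build, modify, bind or cut these proteoglycans were counted in lists, beside the 9.84% of all genes that fell and 10.4% that rose. Of 7 tested members of the wider family, 1 fell: *Ecm2*, encoding an extracellular matrix protein, went from 7.54 to 3.93 CPM (log2 fold change −0.94, adjusted p = 0.018), while *Tsku* (0.27, adjusted p = 0.24) and *Chadl* (0.18, 0.65) did not pass. Of 23 genes for linker and chondroitin or dermatan sulfate synthesis, 4 fell. They included the dermatan epimerase-like gene *Dsel* (90.6 to 42.2 CPM, −1.10, adjusted p = 0.015), the uronyl sulfotransferase *Ust* (38.5 to 25.1 CPM, −0.62, 0.013) and *Csgalnact2*, which starts chondroitin chains (22.9 to 16.4 CPM, −0.48, 0.042). With the GC offset, neither *Csgalnact2* (−0.08, adjusted p = 0.70) nor *Ecm2* (−0.58, 0.080) passed. Of 9 keratan sulfate genes, 3 fell and 1 rose. The sulfotransferase *Chst2* (25.4 to 15.9 CPM, −0.68, adjusted p = 0.0054) and the galactosyltransferase *B4galt4* (9.47 to 6.36 CPM, −0.57, 0.025) fell, whereas *B3gnt2*, which extends the chain, rose (7.82 to 13.7 CPM, 0.81, 0.020).

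Collagens and fibronectin were among the partner genes that fell. Of 21 fibrillar collagens and fibril-associated genes, 6 fell and 1 rose, with a median log2 fold change of −0.61. *Col12a1*, a fibril-associated collagen, went from 534 to 188 CPM (−1.50, adjusted p = 0.0084), *Fn1*, encoding fibronectin, from 512 to 225 CPM (−1.19, 0.027), and *Col2a1*, the cartilage collagen, from 12.3 to 7.24 CPM (−0.77, 0.022). Of 19 genes for cross-linking and processing of collagen, 2 fell: the prolyl hydroxylase *P4ha1* (79.7 to 50.6 CPM, −0.66, adjusted p = 0.034) and *Tll1*, a procollagen protease (22.1 to 13.8 CPM, −0.68, 0.040), while *Serpinh1* was at −0.45 (0.068). Of 10 tested proteases that cut these proteoglycans, *Htra1* rose (21.4 to 37.5 CPM, 0.81, adjusted p = 0.035, but 0.65 and 0.097 with the GC offset), and *Mmp14* (0.37, 0.099) and *Mmp2* (−0.43, 0.17) did not pass. Of 19 growth factors and receptors, 1 fell, the receptor *Erbb4* (1.84 to 0.261 CPM, −2.80, adjusted p = 0.0047), and *Bmp6* (−0.89, 0.055) and *Tgfbr1* (−0.44, 0.062) did not pass. *Chst2*, *Col12a1* and *Erbb4* passed in all 20 alternative fits. The other 11 pathway genes named here as falling or rising passed neither without control library 2, with adjusted p-values from 0.058 (*Ust*) to 0.16 (*Csgalnact2*), nor without control library 3, from 0.055 (*Dsel*) to 0.14 (*Csgalnact2*). These lists are descriptions, with no test of the list itself.

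Markers of other tissues moved with the genotype beside these results. All 8 tested skeletal muscle markers fell by edgeR and by DESeq2, but 2 of them by limma voom, and the list of 10 summed to 11.9 to 41.5 CPM in controls and 3.25 to 4.30 CPM in mutants. Of 9 tested cartilage markers, 5 fell (414 to 456 CPM summed, against 310 to 388), and *Matn1* had at most 3 counts in each library. Of 7 follicle and ligament markers, 1 fell, *Postn* (142 to 88.5 CPM, log2 fold change −0.68, adjusted p = 0.024). *Pthlh* was higher in every mutant library but did not pass (11.7 to 14.8 CPM, 0.35, adjusted p = 0.054). The other markers of the list overlapped between the groups. The summed list overlapped (2375 to 2965 CPM against 2196 to 2883), and most of it was *Igfbp5* (2221 to 2737 CPM in controls). In the osteoblast list, 1 of 7 genes rose, *Spp1* (14.9 to 34.9 CPM, 1.23, adjusted p = 0.039), and 0 fell. The sums overlapped (12266 to 38674 CPM against 11211 to 29918), and most of each was *Col1a1* (11084 to 37133 CPM in controls). Of the 5 odontoblast genes, 0 passed by edgeR, with 0 at an unadjusted p under 0.05 and 0 by DESeq2 or limma voom, and of the 8 epithelial genes 0 passed by edgeR, with 4 higher at an unadjusted p under 0.05, 3 by DESeq2 and 4 by limma voom. None of these genes was at 0 in all 6 libraries. The part of these tissues in the lower proteoglycan levels was not tested.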

How the data were processed

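RNA-seq of 3 control (*Ror2fl/fl*) and 3 mutant (*Osr2-Cre;Ror2fl/fl*) libraries was analyzed, grouped by the genotype in the labels. The authors deposited estimated counts per gene, from single-end reads of 75 cycles on mm10. The methods name TopHat for alignment, whereas the submitters' processing notes name STAR 2.6.1d and Partek. The counter, its annotation and its use of strand are not given in the sources used here. Of the values, 47.8% are exactly whole, zeros included, and how reads matching several genes were handled is not stated. The authors also deposited normalized signal per gene, used only in an alternative. The 6 columns of other samples were not used.

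Estimated counts were rounded, filtered with filterByExpr (19330 genes kept), scaled by TMM and tested with edgeR 4.0.16 (R 4.3.3) by quasi-likelihood, and p-values were adjusted over these genes after Benjamini and Hochberg. Permutation tests were exact and two-sided on log2 CPM with a prior count of 2. A count of 3 corresponds to about 0.05 CPM. Intervals for *Kera* and *Epyc* cover counting error only. Those for *Dcn* and *Bgn* are normal approximations from the SE of the edgeR fit. Alternatives were DESeq2 1.42.0, limma 3.58.1 (voom, and limma-trend with pseudocounts of 1 and 0.1), other scalings and filters, GC and length offsets, the replicate number as a block, summing of genes sharing sequence, and leaving out each library. Levels per kb used GENCODE M21 exon lengths. Named genes are all members, *Ror2*, the 3 genes with the smallest p of each pathway list, and markers whose level bears on a member; *Cenpp* and the genes set beside *Bgn* were chosen after their values were seen. Members, lists and rules were chosen with earlier results of these data known.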

Additional observations from a re-analysis of the deposited data

How the results depend on the processing

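Over the 20 alternatives, no tested member changed direction. *Ogn* passed in 19 of 20 (not with the replicate block and GC offset together, adjusted p = 0.074), *Omd* in 19 (not when summed with genes sharing sequence, 0.053), *Prelp* in 17, *Fmod* in 15, *Aspn* in 14 and *Lum* in 13. *Dcn* and *Bgn* passed in 0 of 20, with adjusted p from 0.083 to 0.90 and from 0.21 to 0.95, and *Epyc* in 6 of the 19 that tested it. The number of members that fell was 2 to 6 with 1 library left out, against 2.08% to 12.5% of all genes tested. The members that rose stayed at 0. The genes that changed over the whole table, 3906, became 6341 with limma voom and 872 to 5001 with 1 library left out. Of the pathway lists, 17 genes fell, beside 9.84% of all genes tested. The number became 28 with DESeq2 (12.7% of all genes) and 27 with the likelihood ratio test (13.2%). With voom it was 32 (16.4%), with library size only 26 (10.7%) and with 1 library left out 3 to 17 (2.08% to 12.5%). Pathway genes that rose numbered 3 (2003 over all genes), 8 with voom (3167) and 1 with the GC offset (1585). They numbered 1 with the GC and length offset (1608) and 0 to 7 with 1 library left out (458 to 2520). Counts that move with the whole table are not by themselves a result about the lists. *Chadl* turned from 0.18 to −0.00575 with the GC offset and −0.0282 with the replicate block and GC offset, and ranged from −0.0130 (without mutant replicate 2) to 0.409 (without mutant replicate 3) with 1 library left out. The causes were not tested.

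The replicate numbers are sample indices. The methods speak of 3 pairs of samples, and the labels do not say which libraries, if any, were paired. Deviations of equally numbered libraries correlated at −0.10, −0.08 and −0.004. With so few libraries, these values cannot show whether the libraries were paired. With the replicate block, 4 members fell, against 5.18% of all genes tested (*Lum* 0.050 and *Fmod* 0.056 no longer passed). In that fit 2013 genes were called in either direction, and 6 pathway genes were lower. With the replicate block and GC offset, 3 members fell, against 3.03% of all genes tested. In that fit 1361 genes were called in either direction, with 7 pathway genes lower and 1 higher. *Kera*, with at most 22 counts a library, passed in none of the fits that tested it.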
